A study of Mus musculus with 9 samples.

Results

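The receptors, co-receptors and ligands of vascular endothelial growth factor (VEGF) were followed in endothelial cells of mouse liver. The set holds 9 genes, chosen by name and found by symbol in the deposited table of 52636 genes: the receptor genes Flt1, Kdr and Flt4, the neuropilin genes Nrp1 and Nrp2, and the ligand genes Vegfa, Vegfb, Vegfc and Pgf. Of the 9, 8 passed the filter on low counts, and Pgf did not.

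RNA was sequenced from 5 libraries labelled Erg and Fli1 double knockout and from 4 control libraries labelled wild type. The labels describe tamoxifen treatment for all 9 samples, cells taken at day 7 after it, and a sort of live, CD45-negative, CD31-positive cells that had bound a VE-cadherin antibody injected into the mice. The labels used here do not state the allele design, the Cre driver, the strain or the age of the mice. Libraries held between 26791371 and 36401682 counts in the group labelled knockout and between 31613059 and 34663989 counts in the control group. Nothing in the labels says that each library came from its own animal, so the p-values weigh the spread over samples, which may partly be technical.

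The targeted genes encode ETS transcription factors, and their transcripts went opposite ways. Erg averaged 142.9 ± 10.9 CPM in the libraries labelled knockout and 311.6 ± 17.8 CPM in controls (SD, n = 5 and 4), and Fli1 averaged 147.4 ± 22.5 CPM in the libraries labelled knockout and 100.1 ± 8.01 CPM in controls. CPM are counts scaled to library size with TMM factors, which correct for differences in library composition. Gene-level counts do not show whether part of a gene was deleted, so the Fli1 level does not tell whether Fli1 was disrupted. Because the Fli1 transcript did not fall, the 5 libraries are called libraries labelled knockout, and directions are relative to that label. Replicates 2 and 3 of these libraries stood apart from replicates 1, 4 and 5 on the second principal component of all genes tested, at -36.8 and -21.4 against 12.8, 29.4 and 32.1, with controls between -14.9 and 7.43. Results that rest on them are therefore given with and without them. This pair was set apart by these same data, so calls and p-values without it describe the remaining libraries and are no independent test.

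VEGF family ligands are secreted dimers that bind receptor tyrosine kinases on endothelium. VEGFR2, encoded by Kdr, carries most of the mitogenic and permeability signal of VEGF-A. VEGFR1, encoded by Flt1, binds VEGF-A, VEGF-B and placental growth factor tightly, signals weakly, and in its soluble form acts as a decoy. VEGFR3, encoded by Flt4, binds VEGF-C and VEGF-D and is best known from lymphatic vessels, though the sinusoids of the liver also carry it. Neuropilins are co-receptors that bind both VEGFs and class 3 semaphorins. In the liver much VEGF-A comes from hepatocytes, and it maintains the fenestrated sinusoidal endothelium.

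In the libraries labelled knockout, transcripts of 4 of the 9 genes were lower and 0 were higher. Flt1 fell 2.90-fold, Flt4 2.27-fold, Nrp2 1.86-fold and Vegfb 1.55-fold, and for each of the 4 all 5 libraries labelled knockout lay below all 4 controls. Kdr and Nrp1, the main signalling receptor and its usual partner, did not pass the threshold. Vegfa and Vegfc lay far above the control mean in replicates 2 and 3 labelled knockout and far below it in replicates 1, 4 and 5. Without those 2 libraries both were called lower, 4.05-fold and 4.43-fold, and the count of lower members was 6. These 2 calls leave out the libraries where both ligands were high, so they do not stand for the whole group. A call is an adjusted p under 0.05 by the quasi-likelihood test of edgeR, adjusted over all 14583 genes tested. Of those genes 29.3% were called in either direction, 14.8% lower and 14.5% higher, and 13.8% had all libraries labelled knockout below all controls, so a call alone is common in this comparison. At an unadjusted p under 0.05 in edgeR the members' counts were again 4 lower and 0 higher, where 40.7% of all genes passed in either direction, and DESeq2 also called 0 members higher. With scaling by library totals alone, 2623 genes were called higher and 1808 lower, beside 2110 and 2161 with TMM, and the same 4 members were lower. Without replicates 2 and 3 labelled knockout, 14.9% of genes were called lower.

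**Figure D1:**
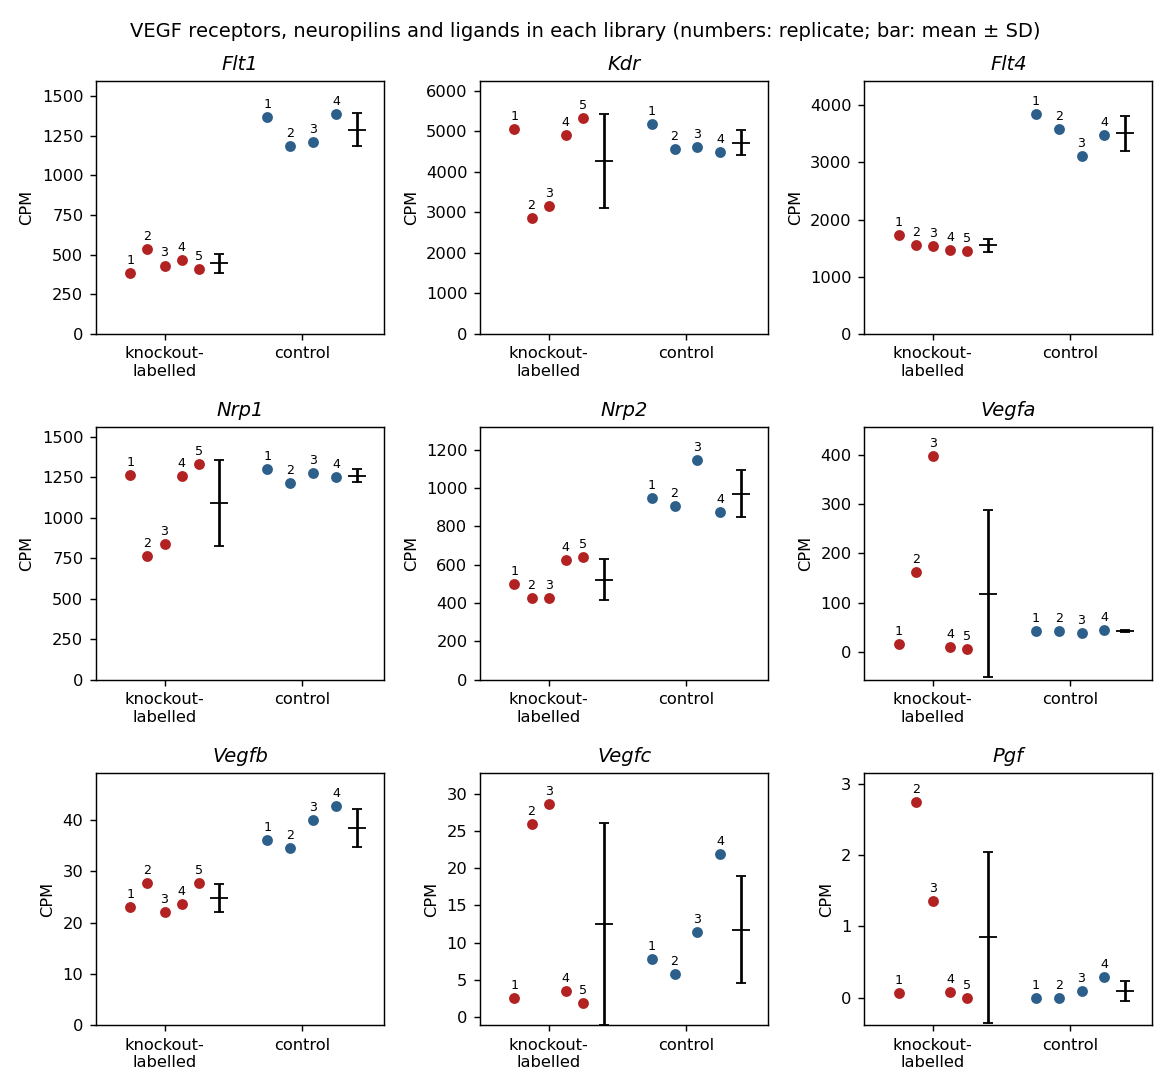
Normalised level (CPM) of the 9 VEGF family genes in each library, with the 5 libraries labelled knockout left of the 4 controls; points carry the replicate number, and bars give the mean ± SD. Flt1, Flt4, Nrp2 and Vegfb separate the groups, while replicates 2 and 3 labelled knockout are lowest for Kdr and Nrp1 and highest for Vegfa, Vegfc and Pgf.

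The promoters of Flt1 and Kdr are shown because Flt1 differed between the groups and Kdr, of the same receptor family, did not pass the threshold, and because the targeted factors bind sites around the core GGAA. The 250 bases before each start, from RefSeq on GRCm38.p6, lie at chr5:147726012-147726261 for Flt1 and chr5:75978456-75978705 for Kdr. Both genes are on the minus strand of chromosome 5, and the sequences run 5′ to 3′ towards the start, with GGAA or its reverse complement TTCC in capitals.
Flt1: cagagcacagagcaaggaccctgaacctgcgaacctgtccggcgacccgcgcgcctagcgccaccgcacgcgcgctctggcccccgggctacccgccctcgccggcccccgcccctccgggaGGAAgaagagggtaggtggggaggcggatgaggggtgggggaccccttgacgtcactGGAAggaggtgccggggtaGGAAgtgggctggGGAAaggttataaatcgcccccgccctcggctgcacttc
Kdr: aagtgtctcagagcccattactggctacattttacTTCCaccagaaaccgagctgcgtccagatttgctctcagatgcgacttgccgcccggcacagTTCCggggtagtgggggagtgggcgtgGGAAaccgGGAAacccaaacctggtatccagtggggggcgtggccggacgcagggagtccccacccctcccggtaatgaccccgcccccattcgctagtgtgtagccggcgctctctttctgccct
Each window held 4 GGAA cores counted over both strands, where 93.4% of 32807 mouse promoter windows of this length hold at least 1 and 33.4% hold 4 or more. The longer motif AGGAAG, which contains the core, was found 2 times in the Flt1 window, at 129 and 53 bases before the start, and 0 times in the Kdr window. It occurs in 29.5% of all windows. The related motif CGGAAG occurs in 13.6% of all windows and in none of the 11 windows of the 9 genes. AGGAAG was also found 1 time before Nrp1, which did not pass the threshold, and 0 times before Flt4, Nrp2 and Vegfb, which did. All 250 bases before Flt4, 32 before Nrp2 and 3 before Kdr lie inside an exon that GENCODE annotates from an earlier start. The same holds for 218 bases of 1 Vegfa window and for all 250 bases of both Pgf windows. These matches describe letters in a window and are not evidence of binding.

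Per kilobase of exon, Kdr had the highest level of the 9 genes in both groups. It averaged 472.5 ± 128.6 CPM per kb in the libraries labelled knockout and 522.2 ± 34.4 CPM per kb in controls (SD, n = 5 and 4). Flt4 came next in both groups, at 187.9 ± 13.5 CPM per kb in the libraries labelled knockout and 426.2 ± 36.6 CPM per kb in controls. Flt4 and Kdr did not overlap in either group. Nrp1 followed, at 111.4 ± 27.4 and 128.8 ± 3.87 CPM per kb in the libraries labelled knockout and in controls. Flt1 and Nrp2 stood close together. Flt1 averaged 32.9 ± 4.34 CPM per kb in the libraries labelled knockout and 95.4 ± 7.80 CPM per kb in controls, and Nrp2 averaged 44.1 ± 8.93 CPM per kb in the libraries labelled knockout and 81.8 ± 10.3 CPM per kb in controls. Their ranges overlapped in both groups, so their order was not larger than the spread. The ligands had lower means than the receptors in both groups. Vegfb averaged 15.5 ± 1.68 CPM per kb in the libraries labelled knockout and 23.9 ± 2.31 CPM per kb in controls. Vegfa averaged 27.5 ± 39.6 CPM per kb in the libraries labelled knockout, a mean set by 2 of them, and 9.75 ± 0.624 CPM per kb in controls. Vegfc averaged 5.11 ± 5.53 CPM per kb in the libraries labelled knockout and 4.80 ± 2.95 CPM per kb in controls.

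Flt1 (ENSMUSG00000029648, GRCm38 chromosome 5, 147561604 to 147726011, minus strand) encodes VEGFR1. It lay at 383.5, 534.5, 431.2, 465.0 and 408.1 CPM in replicates 1 to 5 labelled knockout, against 1370, 1187, 1208 and 1388 CPM in control replicates 1 to 4. All 5 values were below every control, and replicates 2 and 3 did not stand apart. The log2 fold change was -1.54 ± 0.12 (SE, edgeR adjusted p = 3.69e-05), and -1.61 ± 0.11 without replicates 2 and 3. Gene-level counts merge the membrane-bound and the soluble forms of Flt1, so which form fell was not measured.

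Flt4 (ENSMUSG00000020357, chromosome 11, 49609263 to 49652739, plus strand) encodes VEGFR3. Its values were 1729, 1553, 1532, 1475 and 1443 CPM in replicates 1 to 5 labelled knockout, against 3849, 3579, 3119 and 3487 CPM in the controls. The groups did not overlap, and among the 9 genes Flt4 had the smallest coefficient of variation in the libraries labelled knockout, 7.19%. On the log2 scale Flt4 differed by -1.18 ± 0.12 (SE, edgeR adjusted p = 1.11e-04), and -1.17 ± 0.12 without replicates 2 and 3. Markers of lymphatic endothelium, where Flt4 is also expressed, summed to between 6.33 and 16.1 CPM in the libraries labelled knockout and between 3.44 and 6.32 CPM in controls. Prox1 carried this sum. Without it the other 4 markers summed to between 0.494 and 2.81 CPM in the libraries labelled knockout, highest in replicates 2 and 3, and between 0.851 and 1.64 CPM in controls, so the groups overlapped. Ccl21a had 0 counts in all 9 libraries.

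Kdr (ENSMUSG00000062960, chromosome 5, 75932827 to 75978458, minus strand) encodes VEGFR2. It lay at 5055, 2861, 3160, 4919 and 5338 CPM in replicates 1 to 5 labelled knockout, against 5174, 4573, 4624 and 4491 CPM in the controls. Replicates 1, 4 and 5 fell in or just above the control range, and replicates 2 and 3 were at 0.607 and 0.670 of the control mean. The coefficient of variation was 27.2% in the libraries labelled knockout and 6.59% in controls. For Kdr the log2 fold change was -0.14 ± 0.21 (SE, edgeR adjusted p = 0.643), and it turned to 0.12 ± 0.10 without replicates 2 and 3 (edgeR adjusted p = 0.407).

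Nrp1 (ENSMUSG00000025810, chromosome 8, 128358604 to 128503363, plus strand), which presents VEGF-A to VEGFR2, followed Kdr library by library. Its values were 1264, 763.8, 836.9, 1258 and 1330 CPM in replicates 1 to 5 labelled knockout, against 1302, 1212, 1275 and 1255 CPM in the controls. Replicates 2 and 3 were again the low ones, at 0.606 and 0.664 of the control mean. For Nrp1 the log2 fold change was -0.21 ± 0.18 (SE, edgeR adjusted p = 0.413), and 0.035 ± 0.086 without replicates 2 and 3 (edgeR adjusted p = 0.799).

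Nrp2 (ENSMUSG00000025969, chromosome 1, 62703285 to 62818695, plus strand) is the neuropilin that partners VEGFR3. It lay at 497.0, 423.5, 423.1, 623.8 and 641.4 CPM in replicates 1 to 5 labelled knockout, against 947.6, 906.9, 1146 and 875.6 CPM in the controls. All 5 values were below every control, with replicates 2 and 3 the lowest. On the log2 scale Nrp2 differed by -0.89 ± 0.16 (SE, edgeR adjusted p = 0.00273), and -0.71 ± 0.13 without replicates 2 and 3.

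Levels of the defining markers were checked beside these receptors. The sort's own genes, Cdh5 for VE-cadherin and Pecam1 for CD31, averaged 2158 ± 193 and 1408 ± 164 CPM in the libraries labelled knockout, and 2190 ± 113 and 1482 ± 97.9 CPM in controls. The sum of 10 endothelial markers was 12154 and 11866 CPM in replicates 2 and 3 labelled knockout, between 16415 and 17149 CPM in the other 3, and between 17199 and 18285 CPM in controls. Of these 10 markers, 4 were called lower and 6 did not pass the threshold. Over all genes tested 14.8% were called lower and 14.5% higher. Eng and Ptprb made the gap between the libraries labelled knockout. Without them the sum was 6532 and 6956 CPM in replicates 2 and 3, between 6247 and 6861 CPM in the other 3, and between 7503 and 8377 CPM in controls. The sum of 8 sinusoidal markers lay between 11351 and 18530 CPM in the libraries labelled knockout and between 27149 and 29135 CPM in controls, with 4 of the 8 called lower. Other leukocyte markers summed to between 13.5 and 27.2 CPM in the libraries labelled knockout and between 6.56 and 15.1 CPM in controls, with 2 of 6 tested called higher. The part of these levels in the receptor values was not tested, and in bulk RNA fewer cells of a type and less RNA per cell cannot be told apart.

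**Figure D2:**
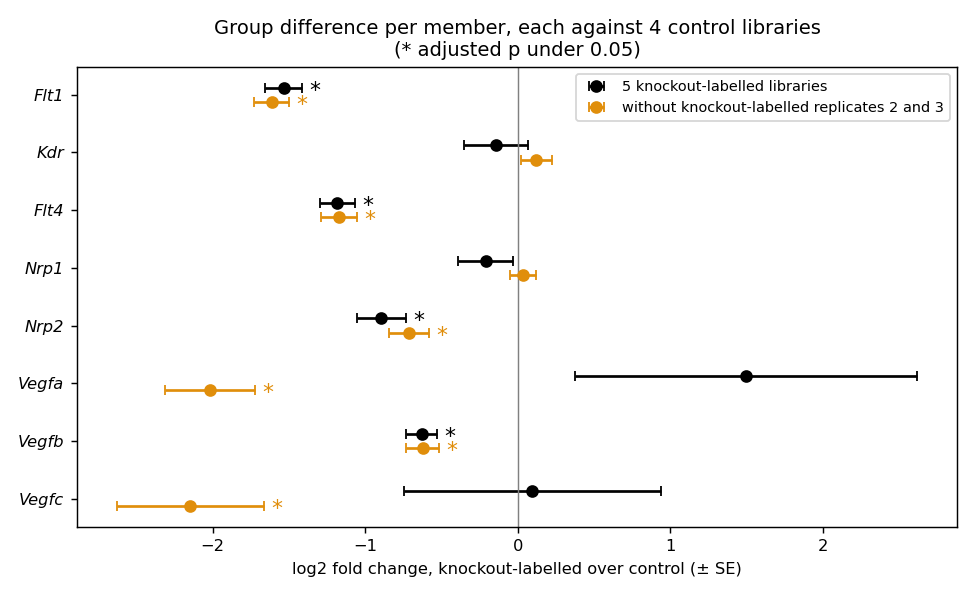
Log2 fold change of the 8 tested members, libraries labelled knockout over controls, with its standard error, for all 5 libraries labelled knockout (black) and without replicates 2 and 3 (orange). Flt1, Flt4, Nrp2 and Vegfb keep their place, while Vegfa lies at 1.50 with all libraries and at -2.02 without the pair, and Vegfc at 0.10 and -2.15.

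The ratio between 2 members within a library does not depend on library scaling, so it tests whether they changed unequally. For Flt1 over Kdr the ratio of counts per kb was 0.0507, 0.125, 0.0913, 0.0632 and 0.0511 in replicates 1 to 5 labelled knockout, against 0.177, 0.174, 0.175 and 0.207 in the controls. The groups did not overlap, and the mean log2 ratio differed by -1.35 ± 0.26 (SE), which is 2.55-fold lower in the libraries labelled knockout. In replicates 1, 4 and 5 Flt1 was low while Kdr was near its control level, and in replicates 2 and 3 both were low. For Flt4 over Kdr the ratio was 0.375, 0.595, 0.532, 0.329 and 0.296 in replicates 1 to 5 labelled knockout, against 0.816, 0.859, 0.740 and 0.852 in the controls. For Nrp2 over Nrp1 it was 0.325, 0.458, 0.418, 0.410 and 0.399 in replicates 1 to 5 labelled knockout, against 0.602, 0.618, 0.743 and 0.577 in the controls. Neither ratio overlapped between groups, and the mean log2 differences were -0.99 ± 0.20 and -0.66 ± 0.11 (SE). Each of these 3 differences had p = 0.0159 in a two-sided exact permutation test, the smallest p this design allows, and 0.0265 after adjustment over the 5 ratios examined. Thus Flt1 and Flt4 differed from Kdr, and Nrp2 from Nrp1, in the size of their change. The ratios Vegfb over Vegfa and Pgf over Vegfa overlapped between the groups (exact permutation adjusted p = 0.762 and 0.139).

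**Figure D3:**
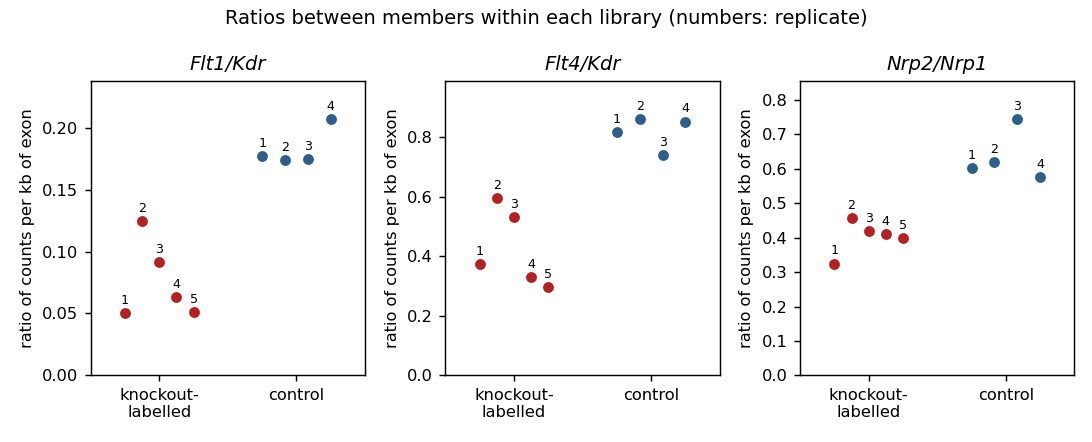
Ratio of counts per kilobase of exon between 2 members in each library, for Flt1 over Kdr, Flt4 over Kdr and Nrp2 over Nrp1; points are libraries with their replicate number, those labelled knockout on the left. All 5 libraries labelled knockout lie below all 4 controls in each panel.

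Vegfa (ENSMUSG00000023951, chromosome 17, 46016993 to 46032369, minus strand), the main ligand of VEGFR1 and VEGFR2, had the widest spread in the libraries labelled knockout. It lay at 15.3, 161.1, 397.8, 9.98 and 5.51 CPM in replicates 1 to 5 labelled knockout, against 42.8, 42.1, 38.01 and 44.2 CPM in the controls. Replicates 2 and 3 were 3.86-fold and 9.52-fold above the control mean, and replicates 1, 4 and 5 were 2.73-fold, 4.19-fold and 7.58-fold below it. No library labelled knockout was inside the control range, which spanned only 38.01 to 44.2 CPM. On the log2 scale Vegfa differed by 1.50 ± 1.12 (SE, edgeR adjusted p = 0.347) with all libraries, 0.20 ± 0.95 without replicate 3 alone, and -2.02 ± 0.30 without replicates 2 and 3 (edgeR adjusted p = 0.00172).

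Markers of hepatocytes, which make VEGF-A, summed to 139.7, 102.2, 114.0, 227.0 and 19.2 CPM in replicates 1 to 5 labelled knockout, against 392.0, 252.6, 208.1 and 164.9 CPM in the controls. These 9 matched markers were therefore not highest in the 2 libraries with the most Vegfa. Macrophage markers summed to 550.1 CPM in replicate 2 and 110.3 CPM in replicate 3, against 87.8 to 393.0 CPM in controls. Stellate cell and fibroblast markers summed to 331.5 and 182.0 CPM in replicates 2 and 3 and to between 263.2 and 364.9 CPM in the other 3, against 93.6 to 163.7 CPM in controls, but most of each sum was Ecm1. Without Ecm1 the other 9 markers summed to 26.4 and 21.8 CPM in replicates 2 and 3, and to between 6.19 and 14.01 CPM in replicates 1, 4 and 5, against 4.35 to 12.01 CPM in controls. The sum of these 9 markers was therefore highest in the 2 libraries with the most Vegfa, but not every marker was. Colec11 was the largest part of the sum in replicate 3, at 10.6 CPM, so the high sum there rested largely on this gene. It lay at 4.75 CPM in replicate 2 and 7.09 CPM in replicate 1, against at most 0.945 CPM in controls. Dcn, Reln and Pdgfrb were highest in both. Lrat was lowest there, at 0 and 0.0520 CPM in replicates 2 and 3, and Pdgfra was highest in replicate 5, at 2.84 CPM. Some sums at low levels were high in replicates 2 and 3 too, or in replicate 2 alone. Smooth muscle markers summed to 3.76 and 2.16 CPM in replicates 2 and 3, and to at most 1.02 CPM in the other 3, against at most 1.09 CPM in controls. Cholangiocyte markers stood apart in replicate 2 only, at 16.97 CPM, mostly Spp1. Replicate 3, at 7.07 CPM, was close to replicate 4, at 6.997 CPM, and controls had at most 6.35 CPM. Lymphatic markers summed to 12.99 and 16.1 CPM in replicates 2 and 3, and to at most 7.61 CPM in the other 3, against at most 6.32 CPM in controls. Erythroid markers were high in replicate 2 alone, at 52.9 CPM, where the other 4 libraries labelled knockout had at most 22.6 CPM and controls at most 33.3 CPM. The part of these cell types in the Vegfa values was not tested.

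Vegfc (ENSMUSG00000031520, chromosome 8, 54077606 to 54187096, plus strand), a ligand of VEGFR3, showed the same 2 high libraries. Its values were 2.61, 26.01, 28.6, 3.42 and 1.90 CPM in replicates 1 to 5 labelled knockout, against 7.79, 5.78, 11.4 and 21.98 CPM in the controls. Replicates 1, 4 and 5 were below every control, replicates 2 and 3 above every control, and control replicate 4 stood above the other controls. For Vegfc the log2 fold change was 0.10 ± 0.84 (SE, edgeR adjusted p = 0.944), -0.35 ± 0.87 without replicate 2, -0.47 ± 0.85 without replicate 3, and -2.15 ± 0.48 without the pair (edgeR adjusted p = 0.0125).

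Pgf (ENSMUSG00000004791, chromosome 12, 85166635 to 85177790, minus strand), which encodes placental growth factor, a VEGFR1 ligand, was nearly absent outside the same 2 libraries. It had 2, 89, 52, 2 and 0 counts in replicates 1 to 5 labelled knockout, against 0, 0, 3 and 10 counts in the controls. At 145 counts in 5 libraries and 13 counts in 4, it did not pass the count filter and has no edgeR test of its own in this comparison. Control replicate 4 had the most Pgf and the most Vegfc of the controls. Vegfd, the remaining mammalian VEGF gene and not a member of the set, had 4, 24, 10, 5 and 2 counts in replicates 1 to 5 labelled knockout and 4, 9, 12 and 10 counts in the controls, and also did not pass the filter.

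Vegfb (ENSMUSG00000024962, chromosome 19, 6982473 to 6987651, minus strand), a VEGFR1 ligand linked to fatty acid uptake, differed from the other ligands in its small spread. It lay at 23.1, 27.7, 22.04, 23.6 and 27.8 CPM in replicates 1 to 5 labelled knockout, against 36.2, 34.6, 40.0 and 42.8 CPM in the controls. The groups did not overlap, and replicates 2 and 3 lay within the values of the other 3. On the log2 scale Vegfb differed by -0.63 ± 0.10 (SE, edgeR adjusted p = 0.00149), and -0.62 ± 0.11 without replicates 2 and 3.

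**Figure D4:**
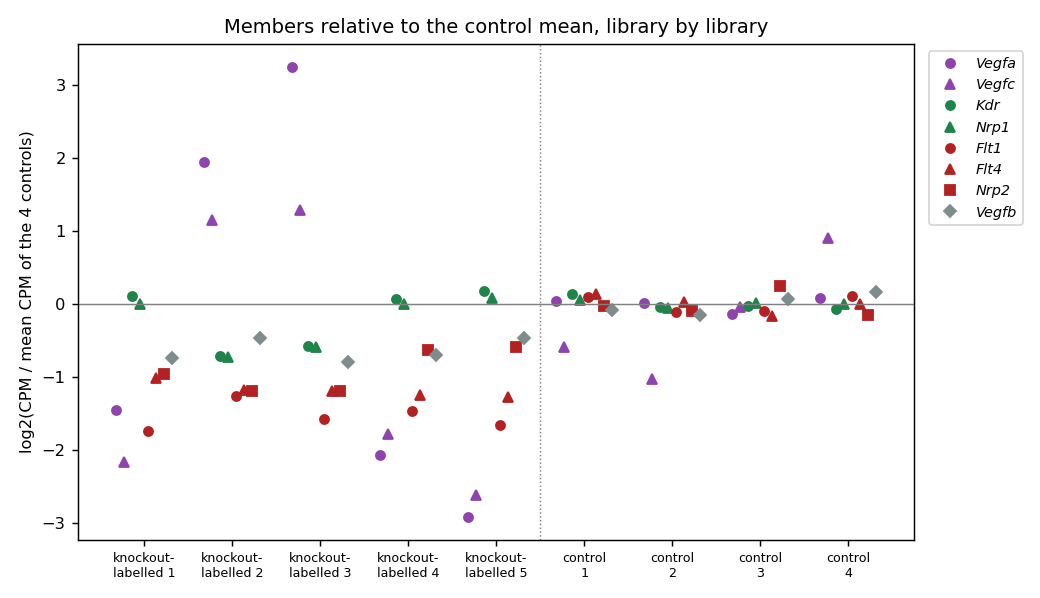
Level of 8 members in each library as log2 of CPM over the mean CPM of the 4 controls; each symbol is 1 gene and each column 1 library, those labelled knockout on the left. Vegfa and Vegfc lie above 0 in replicates 2 and 3 labelled knockout and below 0 in replicates 1, 4 and 5, Kdr and Nrp1 are below 0 in replicates 2 and 3, and Flt1, Flt4, Nrp2 and Vegfb are below 0 in all 5.

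Genes around the receptors were taken as 6 lists, whose median log2 fold changes stood between 0.00 and 0.22, where the median over all genes tested was 0.01. Over all genes tested 14.5% were called higher and 14.8% lower, and the list counts below are to be read beside those shares. Of 32 genes of VEGF receptor signal transduction, all tested, 6 were higher, 9 lower and 17 not past the threshold. The adaptor Nck1 fell to 44.7 ± 3.36 CPM in the libraries labelled knockout, against 88.7 ± 4.05 CPM in controls. Among the Src family kinases that VEGFR2 recruits, Fyn averaged 298.4 ± 29.8 CPM in the libraries labelled knockout and 687.2 ± 14.1 CPM in controls, and Yes1 85.1 ± 4.25 and 123.3 ± 16.3 CPM in the same groups, and both were called lower. Src, at a far lower level, was called higher, at 5.20 ± 2.15 CPM in the libraries labelled knockout and 1.001 ± 0.114 CPM in controls.

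Of 25 tested genes for receptor phosphatases, traffic and stability, 7 were higher, 5 lower and 13 not past the threshold. Mmrn2, a matrix protein that binds CLEC14A and CD93, averaged 350.3 ± 39.3 CPM in the libraries labelled knockout and 1038 ± 49.8 CPM in controls. Myo6, the motor that carries internalised VEGFR2 inwards, averaged 118.4 ± 13.2 CPM in the libraries labelled knockout and 205.5 ± 13.5 CPM in controls. Cblb, a ubiquitin ligase of receptor kinases, was higher, at 187.9 ± 48.3 CPM in the libraries labelled knockout and 42.2 ± 10.6 CPM in controls. Itgb3, the integrin subunit that pairs with VEGFR2, was also higher, at 1010 ± 491 CPM in the libraries labelled knockout and 184.6 ± 40.5 CPM in controls. Platelets carry Itgb3 as well, and 6 platelet markers summed to between 67.2 and 138.8 CPM in the libraries labelled knockout and between 26.6 and 40.1 CPM in controls, with 4 of the 5 tested called higher. Their part in the Itgb3 value was not tested.

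Of 24 tested genes known to be induced by VEGF in endothelium, 6 were higher, 2 lower and 16 not past the threshold with all libraries. Over all genes tested 14.5% were higher and 14.8% lower. Without replicates 2 and 3 labelled knockout 3 of the list were higher and 8 lower, where 14.5% of all genes were higher and 14.9% lower. Plvap, which forms the diaphragms of fenestrae, averaged 1909 ± 521 CPM in the libraries labelled knockout and 389.4 ± 39.1 CPM in controls. Odc1, the first enzyme of polyamine synthesis, averaged 603.1 ± 580.7 CPM in the libraries labelled knockout and 105.4 ± 9.44 CPM in controls. Replicate 3, at 1592 CPM, carried the Odc1 mean, and the other 4 libraries labelled knockout lay between 190.5 and 632.3 CPM. Its log2 fold change was 2.52 with all libraries, 1.76 without replicate 3 and 1.33 without replicates 2 and 3, and its call ended with no count filter (edgeR adjusted p = 0.0607). The nuclear receptor gene Nr4a3 averaged 14.4 ± 8.98 CPM in the libraries labelled knockout and 1.67 ± 1.40 CPM in controls, and its log2 fold change of 3.11 moved to 2.35 without replicates 2 and 3 labelled knockout and to 3.87 without control replicate 3. Rcan1, the calcineurin regulator that VEGF induces through NFAT, was lower, at 99.4 ± 25.2 CPM in the libraries labelled knockout and 150.4 ± 13.8 CPM in controls. The 8 that were lower without the 2 libraries were Rcan1, Dll4, Egr1, Egr2, Esm1, Angpt2, Kcne3 and Adamts1, named after their values were seen except for Rcan1, Esm1 and Kcne3. Of these, Angpt2, a Tie2 ligand, lay at 21.5, 44.0, 80.9, 14.0 and 17.6 CPM in replicates 1 to 5 labelled knockout, against 47.3, 48.9, 66.2 and 79.8 CPM in the controls. Egr1, an immediate early gene, lay at 377.5, 2217, 1311, 103.0 and 201.6 CPM in replicates 1 to 5 labelled knockout, against 1585, 1121, 567.3 and 1756 CPM in the controls. As with Vegfa, replicates 1, 4 and 5 labelled knockout were below every control for both genes, and replicates 2 and 3 were above those 3 libraries. Egr2, Esm1 and Kcne3 had this pattern too, while Rcan1, Dll4 and Adamts1 did not. Rcan1 was lowest in replicate 3, at 79.8 CPM, and Dll4 was lower in replicate 2 than in replicate 1, at 221.3 and 257.9 CPM. The 3 genes that were higher without the 2 libraries were Plvap, Nr4a3 and Odc1.

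Of 13 tested genes of oxygen sensing and Vegfa regulation, 2 were higher and 11 did not pass the threshold. Vhl, which marks HIF for degradation, averaged 23.97 ± 1.90 CPM in the libraries labelled knockout and 15.9 ± 1.17 CPM in controls. Egln3, a prolyl hydroxylase gene that HIF itself induces, lay at 18.2, 75.8, 140.6, 3.20 and 1.503 CPM in replicates 1 to 5 labelled knockout, against 1.51, 1.44, 0.378 and 1.89 CPM in the controls. Its call ended without replicates 2 and 3 (edgeR adjusted p = 0.0598). The HIF subunit genes Hif1a and Arnt averaged 120.4 ± 7.76 and 146.0 ± 6.26 CPM in the libraries labelled knockout, and 104.5 ± 8.51 and 130.3 ± 4.45 CPM in controls, and did not pass the threshold (edgeR adjusted p = 0.0761 and 0.0740).

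Of 10 tested class 3 semaphorins and plexins, the other ligands and partners of neuropilins, 1 was higher, 4 lower and 5 not past the threshold. Sema3f, a ligand of neuropilin-2, averaged 258.9 ± 53.2 CPM in the libraries labelled knockout and 699.9 ± 85.8 CPM in controls, and Sema3d 3.20 ± 1.94 and 33.8 ± 13.4 CPM in the same groups. The receptor gene Plxnd1 averaged 1594 ± 358 CPM in the libraries labelled knockout and 3062 ± 342 CPM in controls. Plxna1 was higher, at 129.7 ± 19.6 CPM in the libraries labelled knockout and 82.8 ± 16.5 CPM in controls. Of 9 tested genes of VEGF-C processing and lymphatic partners, 1 was higher, 2 lower and 6 not past the threshold. Ctsd, a lysosomal protease, averaged 195.7 ± 41.6 CPM in the libraries labelled knockout and 421.8 ± 34.2 CPM in controls, and the transcription factor gene Sox18 126.4 ± 48.4 and 327.6 ± 36.03 CPM in the same groups. Prox1, the lymphatic fate factor, was higher at 8.44 ± 3.43 CPM in the libraries labelled knockout and 3.64 ± 1.002 CPM in controls. Prox1 lay at 10.2 and 13.7 CPM in replicates 2 and 3 labelled knockout and between 5.56 and 6.65 CPM in the other 3, and its log2 fold change was 1.21 with all libraries and 0.75 without those 2. The protease gene Adamts14 lay at 10.6 ± 7.08 and 5.04 ± 2.08 CPM in the same groups and did not pass.

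**Figure D5:**
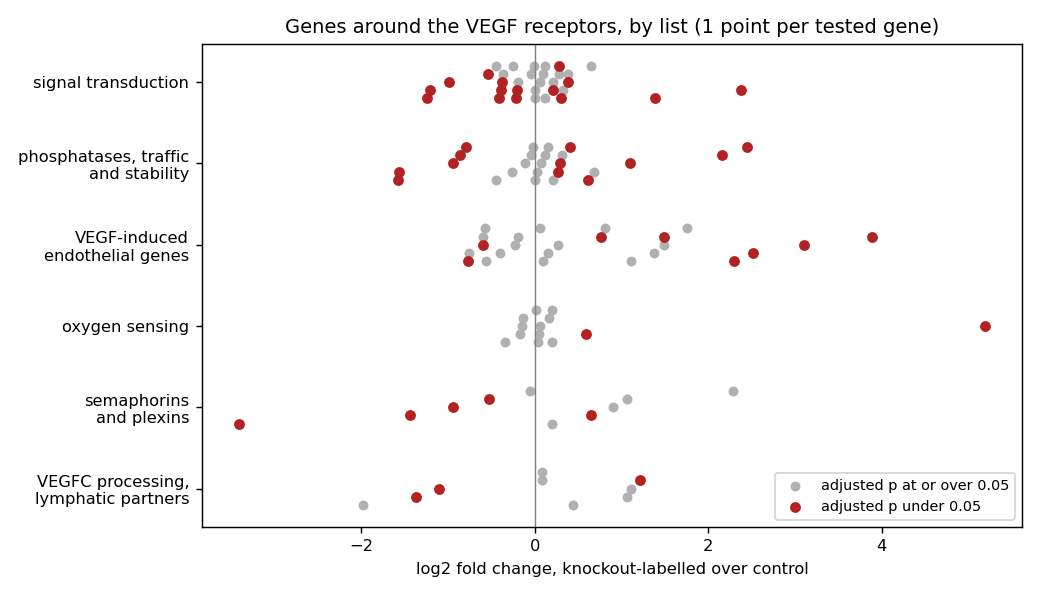
Log2 fold change, libraries labelled knockout over controls, of each tested gene in 6 lists around the VEGF receptors; red points have an edgeR adjusted p under 0.05. Every list except oxygen sensing holds red points on both sides of 0, and Egln3 at 5.20 is the farthest to the right.

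The genes with the profile nearest to a member were found by the root mean square distance between log2 CPM profiles over the 9 libraries, centred per gene, among 8639 candidate genes with a mean of at least 10 CPM. The members themselves and genes with predicted or RIKEN names were left out of these candidates. For Flt1 they were Msrb3, B4galt4 and Arhgap27, at distances between 0.126 and 0.150 on the log2 scale. For Flt4 they were Sccpdh, Fyn and Mxra7, at between 0.105 and 0.126. For Nrp2 they were Akap1, Cyb5a and Lnx2, at between 0.0984 and 0.127. Kdr lay nearest to Erbb2, Eng and Dpysl3, at between 0.0805 and 0.0949. Eng, the endoglin co-receptor of the BMP pathway, repeated the low replicates 2 and 3, with 5974, 3110, 3042, 5715 and 5839 CPM in replicates 1 to 5 labelled knockout, against 5151, 5027, 5020 and 4602 CPM in the controls. Nrp1 lay nearest to Dolpp1, Camk1 and Trim32, at between 0.0863 and 0.0882.

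No candidate gene was as near to Vegfa. The distance was not scaled to the spread of each gene, and Vegfa had a wide spread over the libraries. Its larger distances therefore do not show that its profile was less well matched. Other members, such as Vegfc, were not candidates, so their distance to Vegfa was not measured. The 3 candidates nearest to Vegfa were the monocarboxylate transporter gene Slc16a6, the tip cell gene Esm1 and the potassium channel subunit gene Kcne3. They lay at distances between 0.863 and 0.943. Kcne3 had 0.812, 19.97, 76.7, 0.405 and 0.267 CPM in replicates 1 to 5 labelled knockout, against 11.3, 13.7, 11.8 and 28.5 CPM in the controls. Esm1 had 75.5, 363.4, 456.8, 30.05 and 20.9 CPM in replicates 1 to 5 labelled knockout, against 171.1, 128.0, 118.9 and 581.5 CPM in the controls. Kcne3 and Esm1 were below every control in replicates 1, 4 and 5. Both were high in control replicate 4, where Vegfa at 44.2 CPM was only slightly above the other controls. Slc16a6 had 6.18, 59.9, 113.0, 6.92 and 3.94 CPM in replicates 1 to 5 labelled knockout, against 4.84, 6.96, 10.8 and 6.50 CPM in the controls. It shared the high replicates 2 and 3, but replicates 1 and 4 lay within its control range.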

How the data were processed

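The authors deposited raw counts per Ensembl gene, 52636 rows with 1 column for each of 9 samples. Per the submitters' processing notes, tools included STAR 2.7.6a and FastQC 0.11.5, with build GRCm38. Which program counted the reads, on which annotation and strand, is not given in the sources used here, and the labels name a stranded and an unstranded TruSeq kit without saying which library had which. Groups and replicate numbers came from sample titles, and columns were matched through sample descriptions.

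Symbols, coordinates and summed exon lengths came from GENCODE M21 (GRCm38), which named 52403 identifiers. No gene with more than 0 counts shared exon bases with a member. Genes passing filterByExpr (minimum count 10, minimum total 15; 14583 genes) were TMM-scaled and fitted in R 4.3.3 with edgeR 4.0.16 (robust glmQLFit and glmQLFTest, no covariate). Benjamini-Hochberg adjustment was over all of them, at a threshold of 0.05. Standard errors of log2 fold changes were their size over the root of F. Member ratios used counts plus 0.5 per exon length and a two-sided exact permutation test over libraries. The fit was tested on simulated data. Library pairs of a group differed by a chi-square per degree of freedom of at least 20.3, so none was counted as a copy.

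Members and lists were chosen with earlier results of these data known. The text names the members, Vegfd, the targeted genes, the 4 genes of each list with the smallest p and the 3 nearest profiles of 6 members; Cdh5 and Pecam1 encode the sorted proteins. Of the list genes, 1 marker had no match. Alternatives were DESeq2 1.42.0, limma-voom (limma 3.58.1), other scalings and filters, a replicate block, a sex term (from Xist and Ddx3y), and leaving out each library or replicates 2 and 3 labelled knockout. By those 2 transcripts, replicates 1 and 2 labelled knockout and control replicates 1, 2 and 4 read as male. The other libraries read as female, so sex was not balanced between the groups. Marker sums without the genes that carry them were chosen after seeing the data.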

Additional observations from a re-analysis of the deposited data

Results flagged for a closer look

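Of 116 sets of values examined, each a gene or ratio within 1 group, 10 held a library far from the nearest other value relative to the range of its group; chance gives about 1 in 20. In the libraries labelled knockout, replicate 2 was the high one for Vegfd (0.741 CPM, 24 counts), for the NFAT feedback gene Rcan1 (143.5 CPM) and for Arhgap27 (67.0 CPM), and replicate 3 for Cblb (270.5 CPM) and Kcne3 (76.7 CPM). In the controls, replicate 4 was the high one for the tip cell gene Esm1 (581.5 CPM), for Kcne3 (28.5 CPM) and for the log2 ratio of Flt1 over Kdr (-2.27), replicate 3 for Nr4a3 (3.75 CPM), and replicate 1 for Rcan1 (171.0 CPM).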

How the results depend on the processing

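The calls of Flt1, Flt4, Nrp2 and Vegfb held, all lower, under 19 alternatives each, at log2 fold changes of -1.47, -1.12, -0.71 and -0.57 or further below 0; Kdr and Nrp1 passed the threshold in none. Without replicates 2 and 3 labelled knockout the sign turned for Kdr (0.12), Nrp1 (0.035), Vegfa (-2.02), Vegfc (-2.15) and the log2 ratio of Vegfb over Vegfa (1.51), and for Erbb2 (0.14), Eng (0.25), Camk1 (0.034), Slc16a6 (-0.35) and Kcne3 (-5.03). It also turned with limma-voom for Vegfa (-0.15), Vegfc (-0.52) and Kcne3 (-2.23), and with a sex term for Kcne3 (-0.11). The causes were not tested.

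Leaving out 1 library at a time gave ranges of -0.47 to 0.59 for Vegfc, -0.16 to 0.065 for Eng, -1.04 to 0.44 for Esm1, -1.60 to 0.68 for Kcne3 and -1.10 to 0.53 for Vegfb over Vegfa. Pgf over Vegfa ranged from 1.65 to 3.07 and passed the threshold without control replicate 4 (exact permutation, adjusted p = 0.0446). Pgf had 0 counts in some libraries, so this ratio leaned on the 0.5 added to each count, and the pass is no result about Pgf. With 5 added instead, the difference over all libraries was 1.46, where it was 2.26 with 0.5. The log2 ratios ranged from -1.55 to -1.23 for Flt1 over Kdr, -1.13 to -0.87 for Flt4 over Kdr and -0.71 to -0.58 for Nrp2 over Nrp1. Their adjusted p was 0.0595 without control replicate 1, 2 or 3, and 0.0714 without replicates 2 and 3 labelled knockout (-1.74, -1.30 and -0.75), where fewer samples allow no smaller permutation p than 0.0571 before adjustment.

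Replicate numbers do not pair the libraries, since same-numbered deviations correlated at 0.33, -0.052, -0.019 and -0.36. With them as a replicate block, 1296 genes were higher and 1375 lower, and Vegfc (-0.13) and Kcne3 (-1.27) turned. Fli1 (0.50) and Prox1 missed the threshold (edgeR adjusted p = 0.0639 and 0.0778). For the 3 receptor ratios the block paired same-numbered libraries and left out replicate 5 labelled knockout, which has no control of its number. The mean log2 differences were -1.23, -0.87 and -0.66 (exact sign-flip test on the pairs, adjusted p = 0.156). That p was set by the design, whose smallest p before adjustment is 0.125. Of 777 values of 41 other named genes, 747 kept their direction and side of the threshold. Egln3 lost its call in 7 of 18 alternatives (edgeR or limma-voom adjusted p up to 0.259). Rcan1 lost its call in 2 of 19 (edgeR adjusted p up to 0.0616), among them the fit without control replicate 1 (edgeR adjusted p = 0.0591). At a worth of 0.0260 to 0.0368 CPM for 1 count, values under about 1 CPM, among them those of Pgf, Vegfd, Kcne3 and Egln3 in some libraries, rest on few counts.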
